A study of Homo sapiens with 6 samples.

Results

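The genes described here encode the proteins of the cytosolic ribosome, measured in A375 cells, an established human melanoma line, after silencing of fumarylacetoacetate hydrolase (FAH). They were taken by symbol: RPLP0, RPLP1, RPLP2, RPSA and every RPL or RPS symbol with a number and, optionally, the letters A, X or L and a further digit. Of 18372 genes tested, 64 fitted this rule, 42 of the large subunit and 22 of the small subunit, and 8 of them are paralogs whose symbols end in L or L1. A further 11 symbols of the rule occurred only on probe sets that name several genes and were not tested as genes. RPLP0 and RPSA were not analysed here.

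The siFAH group held 3 arrays of cells transfected with an siRNA against FAH, and the control group held 3 arrays of cells transfected with a negative control siRNA. All 6 samples were A375 cells taken at 72 h, and each array (Affymetrix Human Gene 1.0 ST) read total RNA of 1 sample. The labels name 1 cell line and a single siRNA name against FAH, so an effect of FAH loss and another effect of that siRNA cannot be told apart. Signals are log2 values after RMA, the summary that corrects background and normalizes between arrays, and every difference below is siFAH minus control on that scale.

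A cytosolic ribosome pairs a small subunit, which reads the mRNA, with a large subunit, which joins the amino acids. Each subunit holds ribosomal RNA and many proteins, most of them needed in equal amounts, which are encoded by genes scattered over the chromosomes. Their mRNAs are among the most abundant of growing cells. Most begin with a C followed by a run of pyrimidines, the 5′ terminal oligopyrimidine or TOP motif, through which growth signals control their translation. Human ribosomal protein genes also have many near-identical processed pseudogenes, and the files do not say which of these a probe set can read, so each value below belongs to a probe set and its gene name is uncertain to that degree.

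FAH signal was 4.92, 4.60 and 4.92 in the siFAH arrays, against 5.48, 5.59 and 5.68 in the control arrays. The groups did not overlap, and FAH was lower by -0.77 (SE 0.10, limma adjusted p = 0.0021). Of 7 melanocyte lineage genes, MITF, SOX10 and S100B lay above the median signal of all genes, while PMEL, MLANA, TYR and TYRP1 averaged between 2.90 and 3.88 in siFAH arrays and between 2.87 and 3.88 in control arrays. The 4 endothelial markers averaged at most 4.26 in siFAH arrays and 4.17 in control arrays, and 1 marker each of the 4 keratinocyte, 4 leukocyte and 6 fibroblast markers lay above the median of all genes. CD68, a lysosomal protein listed as a leukocyte marker, was 0.49 higher (adjusted p = 0.0026), with signals of 8.37, 8.33 and 8.30 in siFAH arrays, against 7.84, 7.90 and 7.80 in control arrays, and KRT10, a keratinocyte keratin, was 0.45 higher (adjusted p = 0.0213). The part of other cells in the results below was not tested. Pairs of arrays correlated at 0.9949 to 0.9972 within a group and at 0.9873 to 0.9949 between groups. Each array read RNA of a whole culture, so less RNA per cell and fewer cells of one state cannot be told apart.

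The start sites of the genes that passed the test are shown because the TOP motif is a feature that the symbol rule did not use. RefSeq start regions (GRCh38.p14) were matched for 53 of the 64 genes. A C at a listed start site followed by at least 4 bases that are each C or T was found in 37 of the 53 (69.8%), against 5.14% of all 27305 genes with a start region. Where a gene had several listed starts, 1 with the run was enough, and that start is the one printed, as for RPL10. With the first-listed start alone, 34 of 53 (64.2%) held it, against 4.04% of all genes. Each line below gives 10 bases before the start and 20 from it, 5′ to 3′, with the run of C and T in capitals where it began at the start. The 6 genes that rose come first, then the 5 that fell, then the paralog RPL22L1.
RPL22, chr1:6199576-6199605, minus strand: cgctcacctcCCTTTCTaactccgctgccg
RPS29, chr14:49598691-49598720, minus strand: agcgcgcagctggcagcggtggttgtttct
RPL27, chr17:42998409-42998438, plus strand: gtgaaaggttagcggaagtgtccttctttc
RPL28, chr19:55385922-55385951, plus strand: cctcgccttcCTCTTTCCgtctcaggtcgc
RPL26L1, chr5:172958719-172958748, plus strand: tccaggggtcggcgaacgaaacgcggagct
RPS13, chr11:17077648-17077677, minus strand: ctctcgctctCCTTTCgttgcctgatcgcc
RPS9, chr19:54200848-54200877, plus strand: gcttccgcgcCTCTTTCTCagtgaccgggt
RPL10, chrX:154398367-154398396, plus strand: ggaggagcgcCTCTTTCCCTTCggtgtggt
RPS7, chr2:3575250-3575279, plus strand: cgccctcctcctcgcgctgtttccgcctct
RPL18, chr19:48619159-48619188, minus strand: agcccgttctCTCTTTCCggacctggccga
RPL3, chr22:39319604-39319633, minus strand: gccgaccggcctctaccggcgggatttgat
RPL22L1, chr3:170870176-170870205, minus strand: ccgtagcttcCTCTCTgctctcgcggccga

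The run was found at the start of genes that rose (RPL22, RPL28, RPS13) and of genes that fell (RPS9, RPL10, RPL18). Its length was between 5 and 16 bases in the 37 genes, with a median of 8. The median difference was 0.11 in the 37 genes with the run and 0.10 in the 16 without it. Of the 6 paralogs with a start region, RPL22L1 held the run and 5 did not. These are matches of letters at annotated starts, and the starts used in A375 cells were not measured.

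In siFAH cells, some ribosomal protein genes were higher and others lower, in numbers that moved with the setting. Signals of RPL22, RPS29, RPL27, RPL28, RPL26L1 and RPS13 were higher, by 0.23 to 0.46, and those of RPS9, RPL10, RPS7, RPL18 and RPL3 were lower, by -0.38 to -0.24. The other 53 did not pass the test (limma, adjusted p under 0.05 over all 18372 genes). The 6 higher are 9.38% of the 64, beside 3.48% of all genes called higher, and the 5 lower are 7.81%, beside 6.38% of all genes called lower. Shares among genes of similar signal are given below. The median of the 64 differences was 0.10, beside 0.01 for all genes. Of the 64, 48 (75%) lay above 0, beside 51.4% of all genes. With the study's limits of 1.2-fold and p under 0.05 set on limma's unadjusted p, in place of the SAM test that the study names, 5 genes were higher and 5 lower, beside 4.74% and 7.83% of all genes. With cyclic loess between arrays, the counts became 13 higher and 1 lower, beside 771 higher and 788 lower of all genes in place of 639 and 1172. There 55 of the 64 lay above 0. With siFAH replicate 1 left out 3 genes were higher and 4 lower, beside 573 and 948 of all genes. With siFAH replicate 2 left out 1 was higher and 1 lower, beside 271 and 440 of all genes. With siFAH replicate 3 left out 2 were higher and 0 lower, beside 267 and 390 of all genes, where limma gave 6 lower at an unadjusted p under 0.05. Dropping control replicate 1 gave 3 higher and 2 lower, beside 653 and 1192 of all genes. Dropping control replicate 2 or 3 gave 2 higher and 1 lower each, beside 267 and 472 of all genes for replicate 2 and 289 and 438 for replicate 3.

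**Figure D1:**
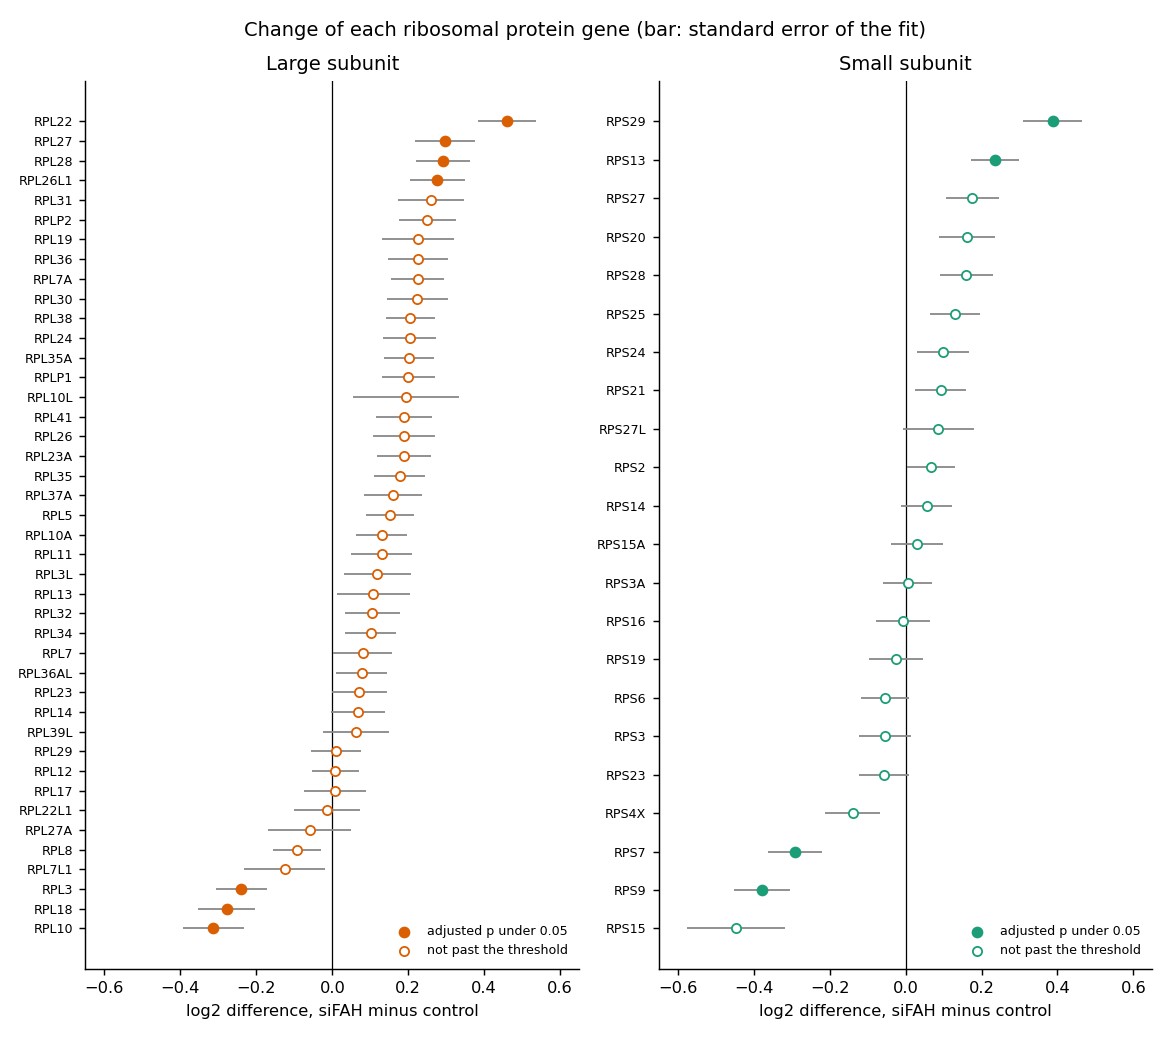
Difference of each ribosomal protein gene, siFAH minus control (log2, horizontal axis), for the large subunit (left) and the small subunit (right), with bars for the standard error of the fit and filled points for an adjusted p under 0.05. The large subunit has 35 of 42 points right of 0, and the small subunit 13 of 22, beside 51.4% of all genes.

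RPL22, a large subunit protein that binds RNA and is dispensable for the growth of mice, had the largest difference above 0. Its signal was 6.86, 7.08 and 7.04 in the siFAH arrays, against 6.56, 6.49 and 6.55 in the control arrays. Every siFAH array lay above every control array, and the difference was 0.46 (SE 0.08, adjusted p = 0.0063). It passed the threshold in 6 of 6 fits without 1 array.

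RPS29, a zinc-binding protein of the small subunit, had signals of 6.70, 6.89 and 6.71 in siFAH arrays, against 6.30, 6.40 and 6.44 in control arrays. The groups did not overlap, and siFAH replicate 2 was the highest array. The difference was 0.39 (SE 0.08, adjusted p = 0.0141), past the threshold in 5 of 6 fits without 1 array.

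RPL27 lies in the large subunit and is, like RPS29, a gene mutated in some families with Diamond-Blackfan anemia, a failure of red cell production caused by loss of ribosomal proteins. Its signal was 10.88, 10.95 and 11.00 in siFAH arrays, against 10.75, 10.68 and 10.51 in control arrays, a difference of 0.30 (SE 0.08, adjusted p = 0.0412). RPL28, a large subunit protein found in animals and plants, stood at 9.35, 9.40 and 9.27 in siFAH arrays, against 8.98, 9.12 and 9.04 in control arrays. In both genes the groups did not overlap, and RPL28 differed by 0.29 (SE 0.07, adjusted p = 0.0296). RPL26L1, a close copy of RPL26, stood at 8.75, 8.84 and 8.74 in siFAH arrays, against 8.53, 8.56 and 8.40 in control arrays. RPS13, a small subunit protein with kin in all domains of life, stood at 10.94, 10.94 and 10.98 in siFAH arrays, against 10.74, 10.74 and 10.68 in control arrays. These 2 genes were separated between groups as well, RPL26L1 with a difference of 0.28 (SE 0.07, adjusted p = 0.0384) and RPS13 with 0.23 (SE 0.06, adjusted p = 0.0441). Without 1 array, RPL27 passed the threshold in 1 of 6 fits, and RPL28, RPL26L1 and RPS13 in 0 of 6, with the highest adjusted p over all alternatives between 0.124 and 0.169 for the 4 genes.

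RPS9, a small subunit protein near the site where mRNA enters, had the lowest difference among those past the threshold. Its signal was 10.23, 10.22 and 10.06 in siFAH arrays, against 10.54, 10.49 and 10.61 in control arrays. All siFAH arrays were below all control arrays, and the difference was -0.38 (SE 0.07, adjusted p = 0.0125), past the threshold in 5 of 6 fits without 1 array. RPL10, a protein that joins the large subunit late, close to where peptide bonds form, stood at 8.51, 8.44 and 8.59 in siFAH arrays, against 8.76, 8.74 and 8.97 in control arrays. Control replicate 3 was the highest of the 6, and the difference was -0.31 (SE 0.08, adjusted p = 0.0378). It was -0.23 with quantile normalization (adjusted p = 0.083) and -0.20 with cyclic loess (adjusted p = 0.122).

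RPS7, a small subunit protein mutated in some families with Diamond-Blackfan anemia, stood at 10.45, 10.36 and 10.26 in siFAH arrays, against 10.65, 10.63 and 10.66 in control arrays. The control arrays lay close together and above every siFAH array, with a difference of -0.29 (SE 0.07, adjusted p = 0.0301). RPL18 of the large subunit stood at 11.90, 11.71 and 11.71 in siFAH arrays, against 12.06, 12.06 and 12.04 in control arrays. The siFAH arrays spread more (SD 0.11, n = 3) than the control arrays (SD 0.01, n = 3), and the difference was -0.28 (SE 0.07, adjusted p = 0.0413). RPL3, a protein of the large subunit that reaches toward the peptidyl transferase centre, stood at 11.21, 11.22 and 11.14 in siFAH arrays, against 11.39, 11.40 and 11.50 in control arrays. Its groups did not overlap, and the difference was -0.24 (SE 0.07, adjusted p = 0.0485). Without 1 array, RPL10, RPS7 and RPL18 passed the threshold in 1 of 6 fits each and RPL3 in 0 of 6, and the highest adjusted p of RPL3 over all alternatives was 0.159.

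RPS15, a small subunit protein with kin in all domains of life, had the lowest difference of the 64 genes and did not pass the threshold. Its signal was 10.50, 10.17 and 9.86 in siFAH arrays, against 10.62, 10.64 and 10.61 in control arrays. The siFAH arrays had an SD of 0.32 and the control arrays one of 0.02 (n = 3 each). The difference was -0.45 (SE 0.13, adjusted p = 0.0554), -0.61 without siFAH replicate 1 (adjusted p = 0.0070) and -0.29 without siFAH replicate 3 (adjusted p = 0.148).

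**Figure D2:**
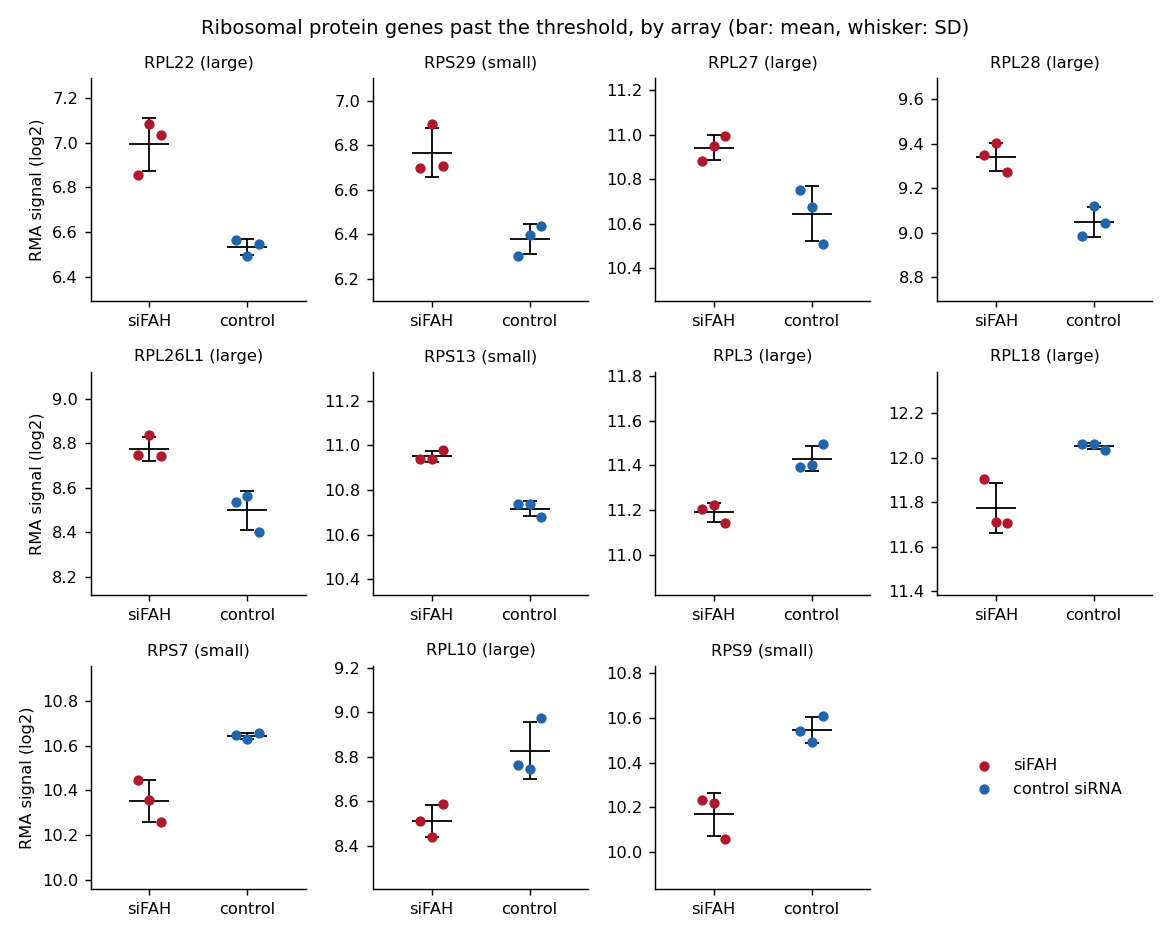
RMA signal (log2, vertical axis, the same span of 1 unit in each panel) of the 11 genes past the threshold in each array, siFAH left and control siRNA right, with the mean as a bar and the SD as a whisker (n = 3 each). The 3 siFAH points lie above the 3 control points in the first 6 genes and below them in the other 5.

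Closest to 0 were RPL17, which lines the tunnel through which the new peptide leaves, and RPL12, at the base of the stalk, in the large subunit, and RPS3A and RPS16 in the small subunit. RPL12 stood at 12.23, 12.23 and 12.22 in siFAH arrays, against 12.21, 12.24 and 12.20 in control arrays, and RPL17 at 8.50, 8.73 and 8.78 in siFAH arrays, against 8.66, 8.66 and 8.67 in control arrays. Both differed by 0.01 (SE 0.06 for RPL12 and 0.08 for RPL17). RPS3A differed by 0.01 (SE 0.07) and RPS16 by -0.01 (SE 0.07), and in all 4 genes the arrays of the groups overlapped. Over the 64 genes the standard error had a median of 0.07 and ranged from 0.06 to 0.14.

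Separation of the arrays was more frequent than calls. In 29 of the 64 genes (45.3%) every siFAH array lay above every control array, beside 13.4% of all genes, and in 9 (14.1%) every siFAH array lay below, beside 18.6% of all genes. In 26 genes the arrays overlapped. RPL38, for example, stood at 12.06, 12.07 and 12.09 in siFAH arrays, against 11.90, 11.87 and 11.83 in control arrays, a difference of 0.21 that did not pass the threshold (SE 0.06, adjusted p = 0.068), and RPL35A at 11.12, 11.13 and 11.15 in siFAH arrays, against 10.98, 10.95 and 10.87 in control arrays (0.20, SE 0.07, adjusted p = 0.079). In both genes the siFAH arrays lay closer together than the control arrays. At an unadjusted p under 0.05, limma gave 23 genes above 0 (35.9%) and 6 below 0 (9.38%), beside 10.8% and 15.3% of all genes.

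The differences were then set beside those of other genes with bright probe sets. Genes were ranked by mean signal over the 6 arrays, which depends on the probes as well as on the RNA, and split into 10 classes of equal size (deciles). The brightest decile held 52 of the 64 ribosomal protein genes. Their median difference was 0.10, beside -0.11 for the 1786 other genes of that decile. All siFAH arrays lay above all control arrays in 48.1% of the 52 and in 16.0% of the 1786, and below in 17.3% and in 46.5%. Limma called 7.69% of the 52 higher and 9.62% lower, beside 8.62% and 19.1% of the 1786. Differences above 0 made up 71.2% of the 52 and 29.7% of the 1786. Over all genes the median of each decile moved with signal, from 0.05 in the dimmest to -0.11 in the brightest, and its part in these values was not tested. Cyclic loess, which levels such a trend between arrays, gave the 64 genes a median of 0.17, and quantile normalization gave 0.11. Within the 64 genes the correlation of the difference was weak with mean signal (Pearson r = -0.15, Spearman rho = -0.12, n = 64 genes) and with the length of the gene (r = 0.09, rho = 0.01). These coefficients are across genes that share the same 6 arrays and are descriptions.

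**Figure D3:**
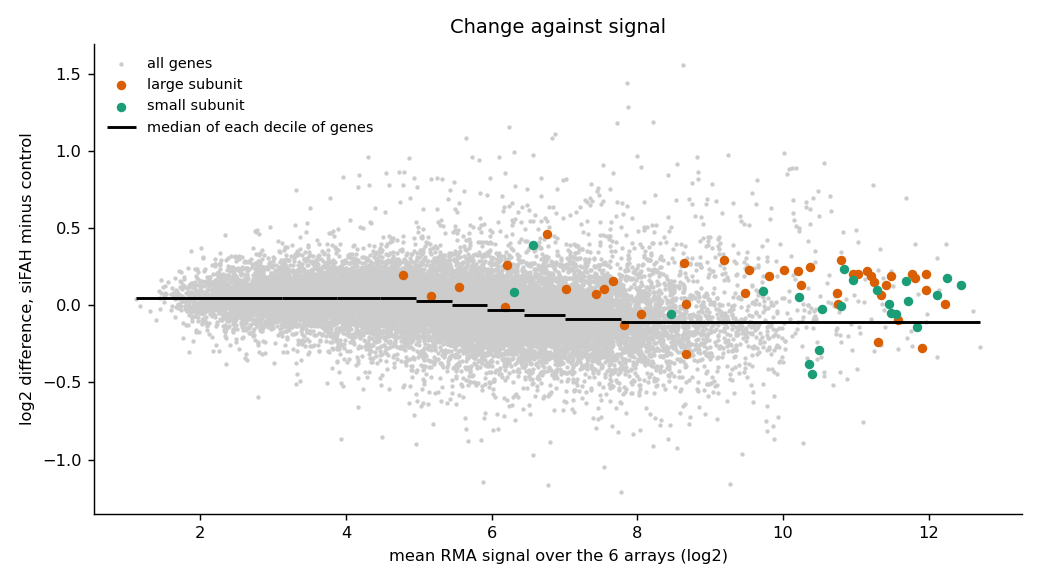
Difference of each of 18372 genes, siFAH minus control (log2, vertical axis), against its mean signal over the 6 arrays (log2, horizontal axis), with black lines for the median of each decile of genes. Ribosomal protein genes of the large and small subunit are coloured, and 52 of them lie in the brightest decile, whose line is at -0.11.

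Most proteins of both subunits are needed in equal numbers, which gives the comparison of the subunits. In the large subunit 4 genes were higher and 3 lower of 42 (9.52% and 7.14%), with a median difference of 0.14. In the small subunit 2 were higher and 2 lower of 22 (9.09% each), with a median of 0.04. Of all genes, 3.48% were higher and 6.38% lower. The mean signal over the 42 large subunit genes was 9.58, 9.65 and 9.63 in siFAH arrays, against 9.53, 9.52 and 9.47 in control arrays. The mean over the 22 small subunit genes was 10.63, 10.64 and 10.59 in siFAH arrays, against 10.63, 10.61 and 10.59 in control arrays. The siFAH arrays were thus above the control arrays for the large subunit genes and mixed with them for the small subunit genes, and both means are descriptions, not tests. The large subunit mean minus the small subunit mean was -1.06, -0.98 and -0.96 in siFAH arrays, against -1.10, -1.09 and -1.12 in control arrays. The medians were 0.15 and 0.004 with quantile normalization, and 0.21 and 0.11 with cyclic loess, for the large and the small subunit in that order.

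Within the large subunit, groups of known role were read side by side. The stalk, which recruits and stimulates the elongation factors, was measured through RPLP1, RPLP2 and RPL12. RPLP1, an acidic stalk protein, stood at 11.86, 11.87 and 11.90 in siFAH arrays, against 11.71, 11.74 and 11.57 in control arrays (0.20, SE 0.07, adjusted p = 0.10). RPLP2, its partner, stood at 10.48, 10.51 and 10.48 in siFAH arrays, against 10.20, 10.37 and 10.15 in control arrays (0.25, SE 0.08, adjusted p = 0.061). Both acidic proteins were separated between the groups, unlike RPL12 on its brightest probe set. The dimmest of the 4 probe sets of RPL12 was separated too, at 0.21 (limma adjusted p = 0.19 over 19291 probe sets). Limma called 0 of the 3 stalk genes, with 2 above 0 at an unadjusted p under 0.05, beside 10.8% of all genes. The methods' t-test also called 0, with 2 at that level, beside 8.64% of all genes. Cyclic loess called 2 of the 3 higher, beside 4.20% of all genes.

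RPL5 and RPL11 form, with a small ribosomal RNA, the particle that binds MDM2 and so frees p53 when ribosome assembly fails. RPL5 stood at 11.30, 11.35 and 11.33 in siFAH arrays, against 11.21, 11.16 and 11.15 in control arrays (0.15, SE 0.06, adjusted p = 0.16), and RPL11 at 11.47, 11.62 and 11.37 in siFAH arrays, against 11.28, 11.38 and 11.41 in control arrays (0.13, SE 0.08, adjusted p = 0.34). RPL5 was separated between groups on this probe set and RPL11 was not. With the mean of its 3 probe sets, RPL5 lay at -0.12 (adjusted p = 0.29).

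Around the exit of the peptide tunnel, 6 of 8 listed genes were measured (RPL17, RPL19, RPL23A, RPL26, RPL31 and RPL35). All 6 had differences above 0, as did 35 of the 42 large subunit genes and 51.4% of all genes. The 6 differences ran from 0.01 in RPL17 to 0.26 in RPL31, with a median of 0.19. Limma called 0 of the 6, with 5 above 0 at an unadjusted p under 0.05, beside 10.8% of all genes. These 5 became 0 without siFAH replicate 2, and 1 without control replicate 3 or with the replicate block. The methods' t-test called 0, with 2 at that level, beside 8.64% of all genes. Of 14 large subunit genes with kin in all domains of life, 2 were lower (RPL3 and RPL10), with a median of 0.08. That is 14.3%, beside 6.38% of all genes. The count became 0 with cyclic loess, the replicate block, or any array but control replicate 1 left out. In those fits 2.12% to 5.16% of all genes were lower. It was 1 without control replicate 1 (7.14%, beside 6.49% of all genes). Of 11 such small subunit genes, RPS29 and RPS13 were higher (18.2%) and RPS9 lower (9.09%), with a median of 0.03. Of all genes, 3.48% were higher and 6.38% lower. Among 14 genes mutated in Diamond-Blackfan anemia, RPS29 and RPL27 were higher and RPS7 and RPL18 lower, with a median of 0.16. That is 14.3% each way, beside the same 3.48% and 6.38% of all genes. The counts were 3 higher and 0 lower with cyclic loess, beside 4.20% and 4.29% of all genes. They were 1 and 0 with the replicate block, beside 1.63% and 2.51%. With any array but siFAH replicate 1 left out, 0 were lower and 0 to 2 higher. In those fits 1.45% to 3.55% of all genes were higher and 2.12% to 6.49% lower. RPS19, the first gene found mutated in that disease, differed by -0.02 (SE 0.07).

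The 8 paralogs replace or resemble another ribosomal protein, and some are known for a tissue: RPL3L for muscle and RPL10L and RPL39L for testis. RPL26L1 was the only one of the 8 past the threshold, and their median difference was 0.08. Of these, 6 could be set beside a measured parent, as paralog minus parent within each array, and for 3 against 3 arrays the smallest exact two-sided permutation p is 0.1. RPL22L1 minus RPL22 was -0.85, -0.76 and -0.82 in siFAH arrays, against -0.29, -0.31 and -0.40 in control arrays. Between siFAH and control cells this gap differed by -0.47, and the groups were separated, as in 2 of the other 5 pairs (exact permutation p = 0.1 in each of the 3, 0.2 adjusted over the 6 pairs). RPL22L1 itself, whose mouse counterpart is repressed by Rpl22, stood at 6.01, 6.32 and 6.21 in siFAH arrays, against 6.27, 6.18 and 6.14 in control arrays (-0.01, SE 0.09), and its arrays overlapped. RPL22 was named for its own call on the same arrays, so the gap is a description.

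RPL10L minus RPL10 was higher by 0.51 in siFAH cells, with -3.78, -3.76 and -3.35 in siFAH arrays, against -3.88, -4.11 and -4.42 in control arrays, and RPL3L minus RPL3 was higher by 0.36, with -5.59, -5.71 and -5.42 in siFAH arrays, against -5.76, -5.90 and -6.14 in control arrays. Both pairs were separated between groups. RPL10L stood at 4.74, 4.68 and 5.23 in siFAH arrays, against 4.89, 4.63 and 4.55 in control arrays, and its arrays overlapped (0.19, SE 0.14). RPL3L differed by 0.12 (SE 0.09) with overlapping arrays. RPL10 and RPL3 were named for their own calls on the same arrays, so these 2 gaps are given as descriptions, and the mean of RPL10L lies under 5, the limit below which genes were left out as dim in an alternative. RPL26L1 minus RPL26 differed by 0.09 (exact permutation p = 0.3), RPS27L minus RPS27 by -0.09 (exact permutation p = 0.3) and RPL7L1 minus RPL7 by -0.20 (exact permutation p = 0.4), and in these 3 pairs the arrays overlapped. RPS27L, known as a p53 target, differed by 0.09 (SE 0.09) and RPS27 by 0.18 (SE 0.07, adjusted p = 0.14). RPL7L1 differed by -0.12 (SE 0.11), RPL36AL by 0.08 (SE 0.07) and RPL39L by 0.06 (SE 0.09), and the parents of the last 2 were not tested as genes.

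A symbol can be read by more than 1 probe set, and 18 of the 64 genes had 2 to 5, 46 probe sets in all. The brightest was used above. The differences of probe sets with the same symbol lay within 0.20 of each other in 9 genes and spanned more in the other 9. In RPL5 the brightest probe set differed by 0.15, and the others by -0.19 and by -0.31 (SE 0.07, adjusted p = 0.0249 over all 19291 probe sets with 1 symbol). The last of these averaged 7.00 in siFAH arrays and 7.31 in control arrays, without overlap. In RPS2, a small subunit protein with kin in all domains of life, the brightest differed by 0.07 and the others by -0.26 and by -0.33 (adjusted p = 0.0399), the last with 11.48 in siFAH arrays and 11.81 in control arrays on average. RPL5 and RPS2 were the 2 symbols whose probe sets lay on both sides of 0, each with all its probe sets separated between the groups.

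In the other direction, RPL41, which encodes a very short peptide of the large subunit, had 2 probe sets with identical values in all 6 arrays (0.19), which are 1 measurement although both are among the 46, and another at 0.47 (SE 0.09, adjusted p = 0.0120). RPL29, a large subunit protein of eukaryotes, was at 0.01 on the brightest probe set and at 0.41 (SE 0.09, adjusted p = 0.0259) on the other. The probe sets of RPL26L1 were at 0.28 and 0.55, both past the threshold, and those of RPS25 at 0.13 and 0.31, the dimmer past the threshold (adjusted p = 0.0351). RPS7 was at -0.29 and -0.01, RPS15 at -0.45 and -0.01, and the 5 probe sets of RPS3A ran between 0.01 and 0.28. By contrast, the 3 probe sets of RPS28 lay between 0.14 and 0.16 and the 2 of RPL23A at 0.19 and 0.21. The mean of the probe sets in place of the brightest gave 7 of the 64 genes higher and 4 lower (10.9% and 6.25%). Of all genes, 3.53% were higher and 6.36% lower in that fit.

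**Figure D4:**
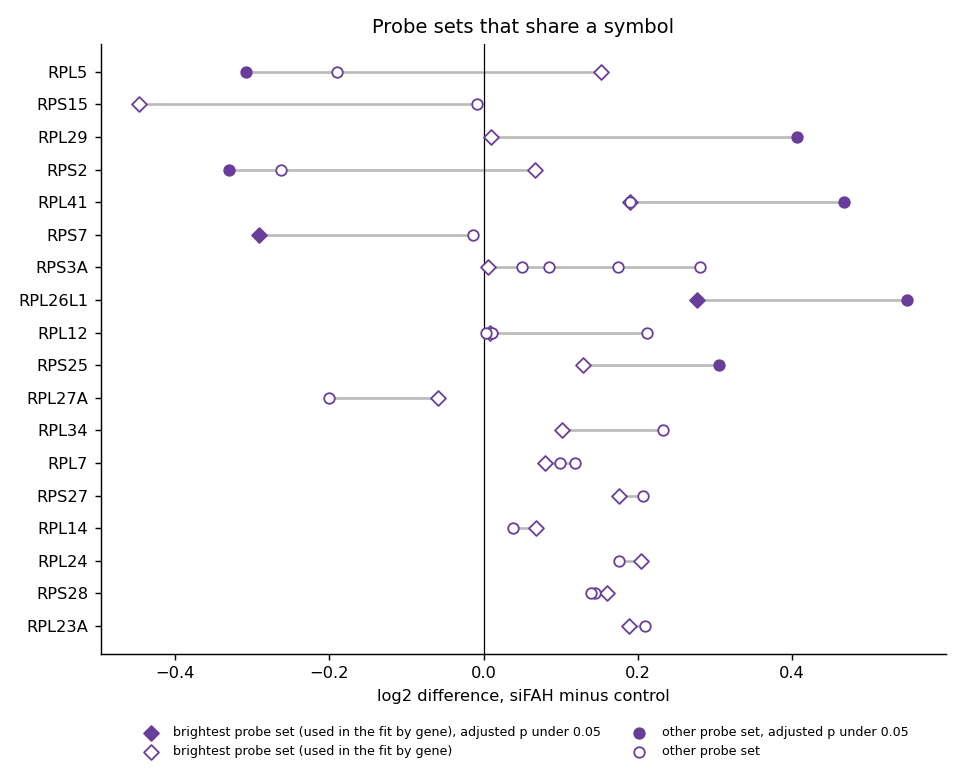
Difference of each probe set, siFAH minus control (log2, horizontal axis), for the 18 ribosomal protein genes with several probe sets, ordered by their span. Diamonds mark the brightest probe set and filled marks an adjusted p under 0.05. RPL5 and RPS2 have marks on both sides of 0.

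Several ribosomal protein genes carry small nucleolar RNAs (snoRNAs) in their introns, which are cut out of the same primary transcript and guide methylation or pseudouridylation of ribosomal RNA. By RefSeq positions, 37 snoRNA genes lie inside 19 of the 64 genes, and 18 of these snoRNAs in 12 hosts had a probe set of their own. Of the 18, 16 were higher and 2 did not pass the threshold, with a median difference of 0.59, beside 0.07 for the 12 hosts. Among all 192 snoRNA and related genes tested, 114 were higher, with a median difference of 0.49. The share of all genes called higher was 3.48%. The snoRNA difference exceeded that of its host in 17 of 18.

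SNORD58A stood at 8.75, 9.42 and 9.28 in siFAH arrays, against 8.57, 8.25 and 8.25 in control arrays (0.79, SE 0.16, adjusted p = 0.0129), inside RPL17, which differed by 0.01. Its adjusted p was 0.054 without siFAH replicate 3, 0.054 without control replicate 2 and 0.065 without control replicate 3. SNORD54, in RPS20, differed by 0.76 (SE 0.16, adjusted p = 0.0193, and between 0.065 and 0.088 with siFAH replicate 2 or 3 or control replicate 2 or 3 left out), SNORD4B, in RPL23A, by 0.74 (SE 0.10, adjusted p = 0.0026) and SNORA52, in RPLP2, by 0.68 (SE 0.12, adjusted p = 0.0070). The hosts of these 3 differed by 0.16, 0.19 and 0.25 in that order and did not pass the threshold. RPL3 was lower by -0.24, while SNORD83B and SNORD83A inside it were higher by 0.65 and 0.41 and SNORD43, inside it too, differed by -0.05 (SE 0.07). A snoRNA and its host are read by different probes, so their differences, not their levels, are set side by side. The median difference was 0.11 in the 19 hosts and 0.10 in the 45 genes without a snoRNA.

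**Figure D5:**
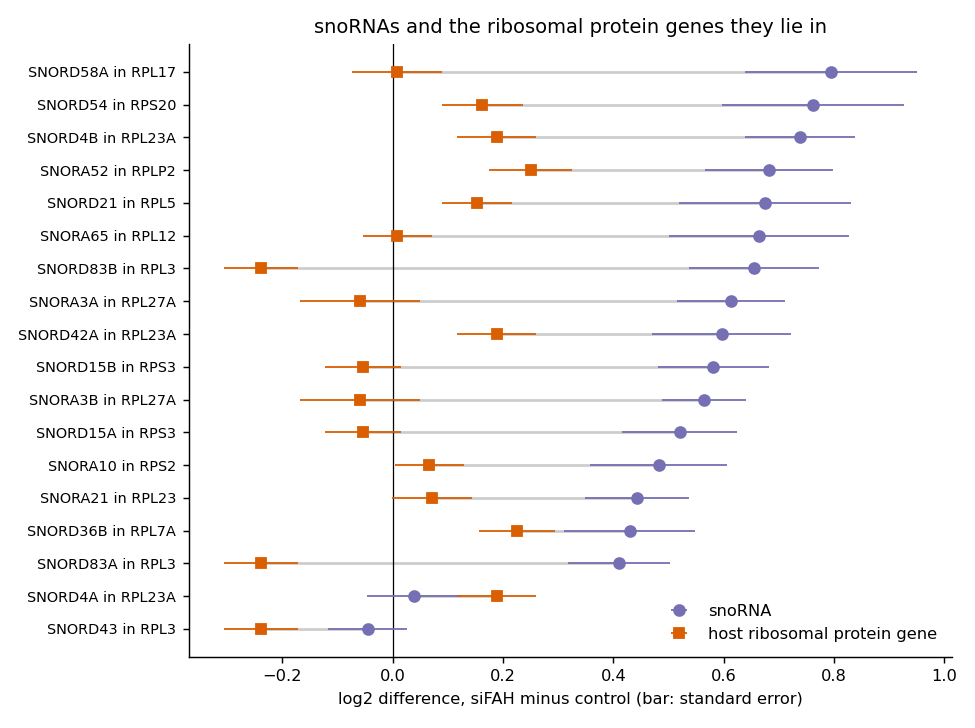
Difference of each of 18 snoRNAs (circles) and of the ribosomal protein gene it lies in (squares), siFAH minus control (log2, horizontal axis), with bars for the standard error. In 17 of 18 rows the circle lies right of the square.

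Beside the ribosomal proteins stood the genes that assemble or serve the ribosome. FAU, which encodes the small subunit protein RPS30 fused to a ubiquitin-like protein, stood at a mean of 8.40 ± 0.26 in siFAH arrays and 8.55 ± 0.03 in control arrays (SD, n = 3 each), a difference of -0.15 (adjusted p = 0.45). Of 16 elongation factor and other TOP mRNA genes, EEF1D was lower (6.25%, beside 6.38% of all genes) and 15 did not pass the threshold. Their median was -0.05, which was 0.05 with cyclic loess. EEF1D, part of the complex that recharges the elongation factor bringing in aminoacyl-tRNAs, averaged 9.31 ± 0.19 in siFAH arrays and 9.88 ± 0.07 in control arrays (SD, n = 3 each), a difference of -0.56 (adjusted p = 0.0069). It was -0.32 with the mean of its probe sets (adjusted p = 0.032). EIF4B, a helper of the initiation helicase, differed by 0.20, EEF2, the translocase, by -0.19 and HNRNPA1, an RNA-binding protein, by 0.18, with adjusted p from 0.10 to 0.38.

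Of 38 genes of ribosome biogenesis measured, 3 were lower (7.89%, beside 6.38% of all genes) and 1 higher (2.63%, beside 3.48%), with a median of -0.11, which was -0.03 with quantile normalization and -0.01 with cyclic loess. The number lower was 9 with dim genes left out and 8 with trend and robust (15.7% and 8.53% of all genes). It was 1 (2.63%) with cyclic loess or the replicate block, beside 4.29% and 2.51% of all genes. It was also 1 with siFAH replicate 2 or 3 or control replicate 2 or 3 left out, beside 2.12% to 2.57%. UTP4, of the complex that starts processing of the small subunit's RNA, averaged 9.58 ± 0.08 in siFAH arrays and 10.17 ± 0.14 in control arrays (SD, n = 3 each), a difference of -0.59 (adjusted p = 0.0035). NOP10, of the core of H/ACA particles, averaged 10.64 ± 0.13 in siFAH arrays and 10.11 ± 0.21 in control arrays (SD, n = 3 each), a difference of 0.53 (adjusted p = 0.0156, and 0.060 without siFAH replicate 2 or 0.063 without siFAH replicate 3). NMD3, the export adaptor of the large subunit, differed by -0.34 (adjusted p = 0.0188, and between 0.061 and 0.071 when siFAH replicate 2 or 3 or control replicate 2 or 3 was left out) and NOP2, a methyltransferase of ribosomal RNA, by -0.29 (adjusted p = 0.052). The other gene past the threshold was NOP58, a core protein of box C/D particles, at -0.27 (adjusted p = 0.0461), named after its value was seen.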

How the data were processed

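Expression was profiled in 6 samples of A375 cells, 3 siFAH and 3 control siRNA, at 72 h. The deposited log2 values were made by the authors with RMA, whose version is not given in the sources used here, and were used without further scaling. Sources differ on the RNA and labeling kits. Of 28829 probe sets, 19291 carry 1 gene symbol. For each symbol the probe set with the highest mean was kept, which left 18372 genes, fitted together in limma 3.58.1 (R 4.3.3) by lmFit with eBayes moderation (siFAH minus control, 4 residual and 6.52 prior degrees of freedom) with Benjamini-Hochberg adjustment. The threshold for a call was an adjusted p under 0.05. The study's SAM test was not run, and its limits were set on limma's unadjusted p. Pairs of paralog and parent were compared by an exact two-sided permutation test. Tables and figures were made in Python 3.11.15 with numpy 2.4.6, scipy 1.17.1 and matplotlib 3.10.9.

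The members, lists and naming rule were chosen with earlier results of these data known. The rule named FAH, every member called, in each subunit the 4 largest and 2 smallest absolute differences, the paralogs with their parents, RPL5, RPL11, the stalk proteins, FAU, and in the factor, biogenesis and snoRNA lists the 4 largest differences. Other members are named for their probe sets, list or example values. Positions and start sequences come from RefSeq (GRCh38.p14), which matched all 64 genes by symbol. The study states 3 biological replicates per group. The number of arrays limits the precision. Alternatives were quantile normalization, median centring, cyclic loess, leaving out genes with a mean under 5, eBayes with trend and robust, the methods' t-test, the methods' limits, the mean of probe sets, the replicate block and leaving out each array.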

Additional observations from a re-analysis of the deposited data

How the results depend on the processing

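The counts of 6 ribosomal protein genes higher and 5 lower moved with the setting. Cyclic loess gave 13 higher and 1 lower. Leaving out genes with a mean signal under 5 gave 12 higher and 6 lower of 63 (19.0% and 9.52%), beside 7.07% and 15.7% of all genes, and eBayes with trend and robust gave 12 higher and 6 lower of 64 (18.8% and 9.38%), beside 4.16% and 8.53%. The methods' t-test gave 0 higher and 0 lower after adjustment, with 23 higher and 7 lower at an unadjusted p under 0.05, beside 8.64% and 12.8% of all genes, and 5 higher and 4 lower at that p and 1.2-fold, beside 3.52% and 6.50%. Leaving out each array gave 1 to 3 higher and 0 to 4 lower. Replicates with the same number did not vary together (correlations of -0.16, -0.09 and -0.27), and the fit with a replicate block gave 2 higher and 1 lower, beside 299 and 462 of all genes, with the median unchanged at 0.10. The 3 genes called under the block were all among the 11.

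The median difference of all 64 genes was 0.17 with cyclic loess in place of 0.10, that of the large subunit 0.21 in place of 0.14, and that of the small subunit 0.11 in place of 0.04. Quantile normalization gave the small subunit 0.0036. Leaving out each array gave medians of 0.090 to 0.132 for all 64 genes, 0.13 to 0.18 for the large subunit and 0.015 to 0.058 for the small subunit.

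Of 659 recomputed values of 44 named genes, 643 kept their sign. Some settings reuse the same difference, so a sign could not change there. These were the fit without dim genes, trend and robust, the methods' t-test, the methods' limits and the replicate block. Quantile normalization turned RPL12 to -0.0913, RPS3A to -0.055 and RPL22L1 to 0.025. Cyclic loess turned RPS16 to 0.0749 and RPL22L1 to 0.023. The mean of probe sets turned RPL5 to -0.12. Leaving out each array gave -0.0833 to 0.0716 for RPL22L1, -0.0365 to 0.0333 for RPS16, -0.0135 to 0.0268 for RPS3A, -0.047 to 0.0919 for RPL17, -0.0174 to 0.149 for RPL39L and -0.23 to 0.004 for FAU. The cause of these changes was not tested. The 11 calls kept their direction under the 15 alternatives, but under the settings that reuse the difference this was fixed in advance. It was also fixed with 1 array left out, because the groups of these 11 genes did not overlap. The calls themselves were kept in 4 (RPL3) to 14 (RPL22) of the 15 alternatives. With cyclic loess, 7 of the 11 genes were called too. Where leaving out an array left 2 in a group, the fit shared the spread of both groups. RPL10L, with a mean signal under 5, could not be tested when dim genes were left out. With 3 arrays a group, many small differences did not pass the threshold.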

Other observations

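Some probe sets name a ribosomal protein gene together with other genes and belong to no comparison above. There were 47 of them, of 28829 probe sets in the file, and their values cannot be given to 1 gene. In a fit over all 28829 probe sets, 15 of the 47 were higher in siFAH arrays and 32 did not pass the threshold (limma, adjusted p under 0.05), beside 3.27% of all probe sets higher and 3.42% lower. The median difference of the 47 was 0.19, with a range of -0.27 to 0.89, beside 0.03 for all probe sets, and 43 of the 47 lay above 0. A snoRNA was among the names of 11, of which 5 were higher. Of the 36 without a snoRNA name, 10 were higher, with a median of 0.18. RPS26 was among the names of 6 probe sets, all 6 of them higher. Probe sets that share names may share probes, so their number is not a number of independent measurements.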
